A study of Mus musculus with 12 samples.

Results

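Integrated stress response (ISR) regulators and effectors were followed as 10 genes by RNA-seq in 12 libraries of mouse peritoneal macrophages, phagocytes that live in the lining fluid of the abdomen. The set held the transcription factors Atf4, Atf5, Atf3, Ddit3, Cebpb and Cebpg, the pseudokinase Trib3, the chromatin-associated cofactor Nupr1, the glutathione-degrading enzyme Chac1 and the phosphatase subunit Ppp1r15a, and members were chosen by gene symbol. Members and the gene lists below were chosen with earlier results of these data known. Their counts beside the shares of all genes are therefore descriptions and not independent tests of the sets. These symbols matched 11 of the 55586 rows of the count table, and 10 rows passed the count filter, 1 for each gene. The remaining row was a second Ddit3 entry of 105 bases inside the first, with 0 reads. The libraries formed 4 groups of 3, namely macrophages given Remodelin hydrobromide and IFN-γ, Remodelin alone, IFN-γ alone, or neither (control). Remodelin is an inhibitor of NAT10, the enzyme that writes N4-acetylcytidine in RNA, and this mark was not measured in these libraries. Dose, time, strain, age and animal are not given in the labels, whether replicates are separate cultures is not stated, and the p-values below therefore measure the spread between libraries, which may be technical.

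The ISR is a relay that joins several stresses to a single step of translation. Its kinases, PERK, GCN2, PKR and HRI, sense unfolded proteins, amino acid shortage, double-stranded RNA and haem or mitochondrial stress, and each phosphorylates the initiation factor eIF2. General translation then falls while the ATF4 protein is made from an mRNA with upstream reading frames, so ATF4 activity can change with little change in Atf4 mRNA. ATF4 pairs with C/EBP partners and drives genes of amino acid supply, the factor CHOP (the product of Ddit3) and feedback genes that restrain or end the response. In macrophages the relay is known for its part in surviving secretory load and infection.

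ATF4 and its C/EBP partners bind a composite element, and the promoters of the genes are shown because the set was chosen for this regulation. RefSeq promoter windows on GRCm38.p6, from 250 bases before to 50 bases after each start, were matched by symbol for all 10 genes, with 2 windows for Atf5. The element TGATGCAA, searched on both strands, was present in the windows of Chac1, Nupr1 and Atf3. That is 3 of 10 genes, against 1.03% of 27025 genes with a window. In each of the 3 it reads TTGCATCA on the gene's strand. The 250 bases before the start are printed for Chac1 (chr2:119350992-119351241, plus strand) and Nupr1 (chr7:126625471-126625720, minus strand), whose mRNA differed most with Remodelin, with the element in capitals.
Chac1: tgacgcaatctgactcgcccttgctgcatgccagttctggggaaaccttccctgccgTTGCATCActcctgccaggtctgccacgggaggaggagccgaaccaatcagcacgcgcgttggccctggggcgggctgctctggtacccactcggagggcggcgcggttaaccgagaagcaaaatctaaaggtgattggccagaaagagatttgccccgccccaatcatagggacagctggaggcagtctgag
Nupr1: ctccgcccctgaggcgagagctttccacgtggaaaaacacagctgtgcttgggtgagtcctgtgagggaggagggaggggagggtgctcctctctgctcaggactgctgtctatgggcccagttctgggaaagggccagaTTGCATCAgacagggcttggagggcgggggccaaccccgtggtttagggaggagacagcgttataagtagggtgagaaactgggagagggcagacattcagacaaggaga

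With the looser letters TGATGNAA, which include the element above, Trib3 also held a match, so that 4 of 10 genes had one, against 4.51% of genes. The Trib3 match lay after the start, at positions 15 to 22. Ppp1r15a alone among the 10 held the cyclic AMP response element TGACGTCA, which 2.03% of genes hold. The remaining matches are printed with 10 bases on each side and the match in capitals, for Atf3 (element at chr1:191183436-191183443, minus strand), Trib3 (chr2:152344039-152344046, minus strand) and Ppp1r15a (chr7:45526273-45526280, minus strand).
Atf3: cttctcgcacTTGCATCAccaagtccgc
Trib3: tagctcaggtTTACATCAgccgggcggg
Ppp1r15a: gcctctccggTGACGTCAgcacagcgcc

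No window of the 10 genes held the C/EBP pattern TTGCNNAA, which 12.2% of genes hold. These are matches of letters in short windows, and binding was not measured. Ddit3 and Atf4, which both belong to the response, held none of the 4 patterns in these windows.

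Values are given as CPM (reads scaled to the TMM-adjusted library total) for comparison of 1 gene between libraries, and as FPKM, which divides by gene length, for comparison between genes. Libraries held 15917454 to 19418665 counts, and 13474 genes were tested. All 6 macrophage markers (Adgre1, Csf1r, Cd68, Lyz2, Itgam and Mertk) were detected, with a summed level of 14955 to 25227 CPM over the 12 libraries. Of this sum Lyz2 alone was 12665 to 23170 CPM, while Adgre1 was at 148 to 200 CPM and Mertk at 17.0 to 40.7 CPM. Of 3 markers of large peritoneal macrophages, Gata6 was at 9.54 to 19.5 CPM, Icam2 at 3.93 to 6.90 CPM, and Timd4 had 8 reads in total. Nat10, which encodes the enzyme that Remodelin inhibits, was at 14.2 to 22.5 CPM in Remodelin libraries and 16.0 to 19.9 CPM in control libraries. The libraries labelled IFN-γ went against their label in part, since 0 of 11 tested interferon-γ target genes were called against control by edgeR (0 at unadjusted p under 0.05, 0 by DESeq2). The summed level of 12 such targets was 154 to 161 CPM in IFN-γ libraries and 134 to 145 CPM in control libraries. For Remodelin with IFN-γ against Remodelin alone, 0 of the 11 were called by edgeR or DESeq2, and 2 were at unadjusted p under 0.05. The median log2 fold change of the 11 was 0.34 in that pair and -0.06 for IFN-γ against control. Their summed levels overlapped there, at 144 to 147 CPM with IFN-γ and 130 to 158 CPM with Remodelin alone. Trends of the libraries with gene GC content differed, in part between the groups compared. Spearman correlations were 0.12, 0.53 and 0.55 in control libraries and 0.22, 0.03 and -0.17 with IFN-γ alone. They were 0.26, 0.10 and -0.37 with Remodelin alone and -0.69, -0.12 and -0.26 with Remodelin and IFN-γ.

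By length-scaled level, Atf3, Atf4 and Cebpb were the most abundant members. Mean FPKM over the 12 libraries was 235 for Atf3, 169 for Atf4 and 123 for Cebpb, at or above the 96.4th percentile of tested genes. Atf5 followed with a mean of 47.6 FPKM. The group of intermediate level held Ddit3 at 17.4 FPKM, Ppp1r15a at 14.0 FPKM and Trib3 at 11.3 FPKM, and the lowest were Cebpg at 7.76, Nupr1 at 5.35 and Chac1 at 4.92 FPKM. The highest of the 12 libraries had 3.66 times the CPM of the lowest for Nupr1, 3.58 times for Chac1 and 3.34 times for Ddit3, against 1.79 times for Cebpg and 1.24 times for Ppp1r15a. Among neighbours in the order of mean FPKM, the library ranges of Nupr1 and Chac1 overlapped in all 4 groups. Those of Ppp1r15a and Trib3 and of Cebpg and Nupr1 overlapped in both Remodelin groups and in neither group without it, and those of Trib3 and Cebpg in both IFN-γ groups. Atf3 and Atf4 overlapped in the Remodelin group alone and Atf4 and Cebpb in control alone, and the other 3 neighbouring pairs (Cebpb and Atf5, Atf5 and Ddit3, Ddit3 and Ppp1r15a) overlapped in no group.

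Remodelin raised 4 of the 10 genes when its effect was averaged over cells with and without IFN-γ. Chac1, Nupr1, Ddit3 and Trib3 rose 2.19-fold, 2.10-fold, 1.95-fold and 1.64-fold, and 0 members were called lower (4.8% of all genes were). Atf4 and Cebpg stood at 1.24-fold and 1.27-fold and did not pass the test, and Atf5, Cebpb, Ppp1r15a and Atf3 lay between 0.877-fold and 1.11-fold. Over all 13474 genes, 2.24% were called higher in the same comparison, by edgeR's quasi-likelihood test with Benjamini-Hochberg adjusted p under 0.05. The median log2 fold change was 0.33 over the 10 members and 0.03 over all genes. The 4 calls were made in each of the 21 alternative analyses of the averaged effect, which include leaving out each library.

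**Figure D1:**
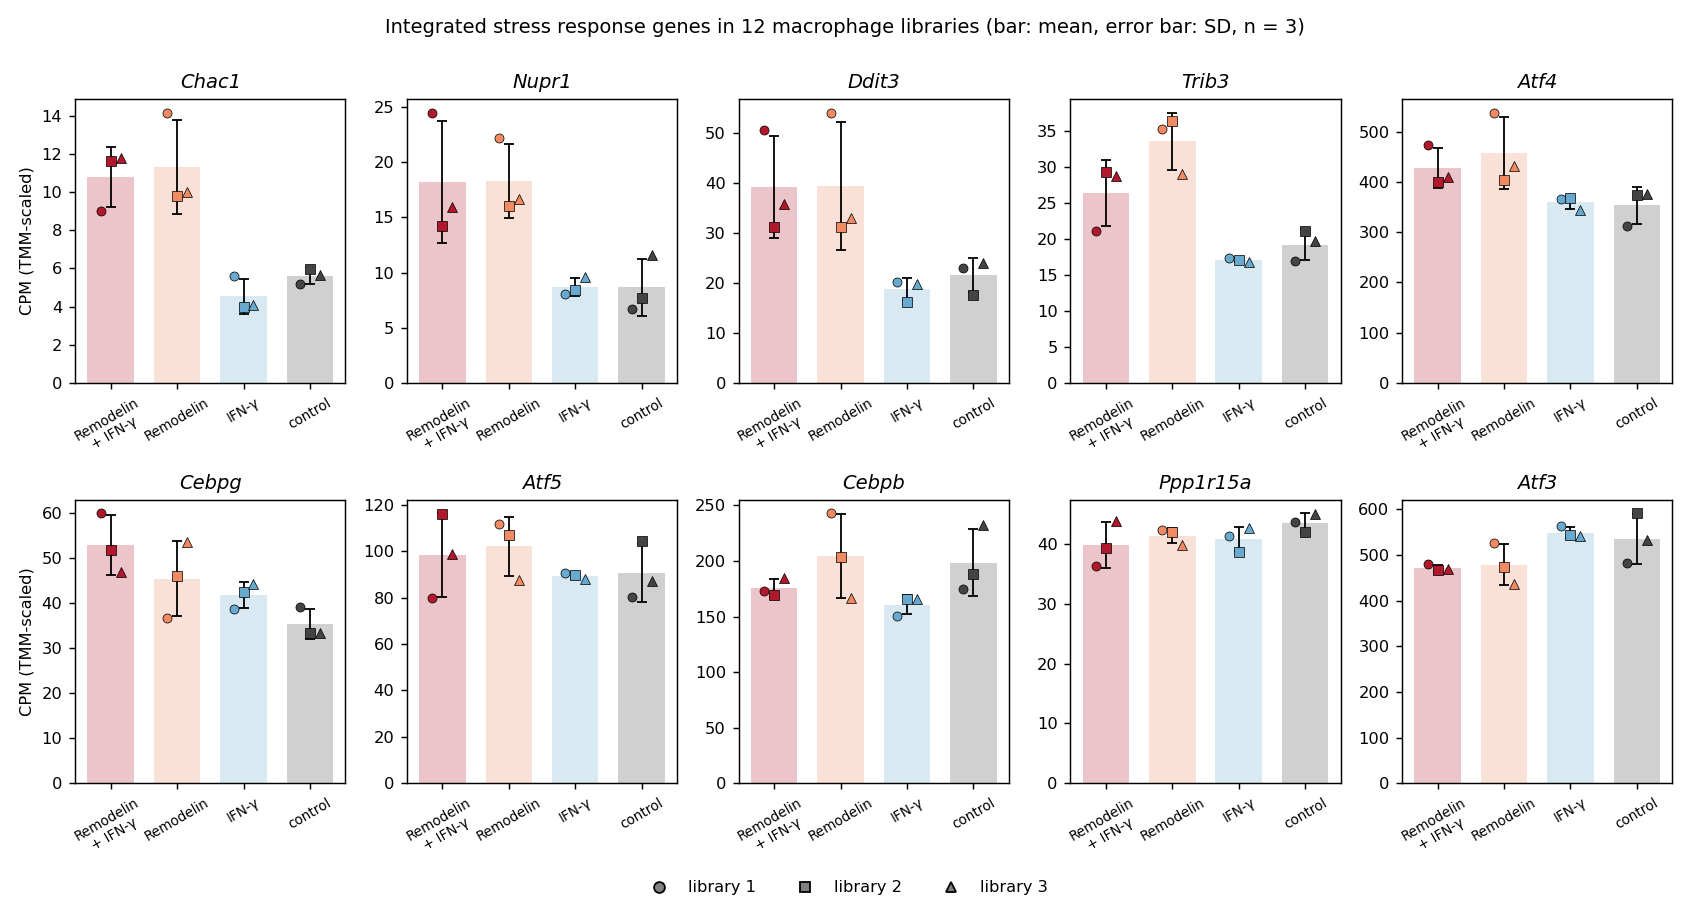
Expression of each of the 10 genes in CPM (vertical axis, starting at 0) by group, with 1 point per library, bars for the mean of 3 libraries and error bars for the SD. For Chac1, Nupr1, Ddit3, Trib3 and Atf4 all 6 Remodelin libraries lie above all 6 libraries without it, while for Atf5 and Ppp1r15a the groups with and without Remodelin overlap in both pairs, and for Cebpb, Cebpg and Atf3 in the pair without IFN-γ. In the pair with IFN-γ, Remodelin libraries lie higher for Cebpb and Cebpg and lower for Atf3.

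Atf4 encodes the basic leucine zipper factor at the centre of the response. Its level was 538, 403 and 432 CPM in Remodelin libraries and 312, 375 and 376 CPM in control libraries. With IFN-γ present it was 473, 400 and 410 CPM in Remodelin libraries, against 366, 368 and 345 CPM with IFN-γ alone. All 6 Remodelin libraries were above the 6 others, with library 1 the highest of both Remodelin groups. The averaged log2 fold change was 0.31 ± 0.11 (SE), with a 95% interval of 0.09 to 0.53, and the edgeR adjusted p of 0.0819 missed the threshold. No overlap in this direction was seen for 1.24% of all genes and for 5 of the 10 members, Atf4, Ddit3, Trib3, Nupr1 and Chac1.

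Cebpg encodes the C/EBP partner with which ATF4 forms a heterodimer on its targets. It had 36.8, 45.9 and 53.5 CPM in Remodelin libraries and 39.1, 33.4 and 33.4 CPM in control libraries, and these groups overlapped. With IFN-γ, the Remodelin libraries had 59.9, 51.7 and 46.9 CPM, all above the 38.6, 42.4 and 44.3 CPM of IFN-γ alone. Its averaged log2 fold change of 0.35 ± 0.12 (SE) had an edgeR adjusted p of 0.0741. Without control 1 or without Remodelin 1 the averaged effect of Cebpg passed the threshold, the only 2 of 12 left-out fits to do so. Over the 12 left-out libraries its edgeR adjusted p ran from 0.0207 to 0.2. Cebpb, a C/EBP factor of macrophage activation and also an ATF4 partner, had 243, 204 and 167 CPM with Remodelin and 175, 188 and 233 CPM in control, which overlapped. With IFN-γ, its 173, 169 and 184 CPM in Remodelin libraries were all above the 151, 165 and 166 CPM of IFN-γ alone, as for 12.2% of all genes in that comparison. Its averaged log2 fold change was 0.09 ± 0.11 (SE), with an interval of -0.15 to 0.32.

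Atf5, a factor with ATF4-like control of its translation that is known for mitochondrial stress, had 112, 107 and 87.6 CPM with Remodelin and 80.4, 105 and 87.3 CPM in control. With IFN-γ it had 80.0, 116 and 98.8 CPM with Remodelin and 90.7, 89.6 and 87.9 CPM without Remodelin. Both pairs of groups overlapped, and the averaged log2 fold change was 0.15 ± 0.11 (SE). Atf3, an early stress factor that damps inflammatory genes in macrophages, was the most abundant member and the only one with a fold change below -0.1. It had 526, 474 and 436 CPM with Remodelin and 482, 592 and 532 CPM in control, which overlapped. With IFN-γ, its 480, 466 and 469 CPM with Remodelin lay below the 563, 543 and 541 CPM with IFN-γ alone, a pattern that 15.6% of all genes showed in that comparison. The averaged log2 fold change of Atf3 was -0.19 ± 0.10 (SE), with an edgeR adjusted p of 0.218. Without control 1 and Remodelin 1 together Atf3 was called lower, at -0.26 (edgeR adjusted p = 0.0302), and it was not called in the other 20 alternatives.

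Ddit3 encodes CHOP, the factor that links a lasting response to cell death. It had 54.1, 31.1 and 32.9 CPM in Remodelin libraries and 23.0, 17.7 and 24.1 CPM in control libraries. With IFN-γ it had 50.7, 31.2 and 35.8 CPM in Remodelin libraries, against 20.2, 16.2 and 19.9 CPM without Remodelin. Library 1 was far above libraries 2 and 3 in both Remodelin groups, and no Remodelin library reached down to the others. The averaged log2 fold change was 0.96 ± 0.16 (SE, edgeR adjusted p = 0.00241). Within each level of IFN-γ the edgeR adjusted p was 0.0878 without it and 0.0501 with it, both above the threshold.

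Nupr1 encodes a small stress protein that acts with CHOP and ATF4 on chromatin. Its level was 22.2, 16.0 and 16.6 CPM with Remodelin and 6.68, 7.71 and 11.6 CPM in control. With IFN-γ the Remodelin libraries had 24.5, 14.2 and 15.9 CPM, against 8.09, 8.43 and 9.62 CPM with IFN-γ alone. As for Ddit3, library 1 was the highest of both Remodelin groups, and control 3 was the highest library without Remodelin. Nupr1 rose by an averaged log2 fold change of 1.07 ± 0.17 (SE, edgeR adjusted p = 0.00159).

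Trib3 encodes a pseudokinase that CHOP and ATF4 induce and that restrains ATF4 in turn. Its level was 35.2, 36.4 and 29.0 CPM with Remodelin and 16.9, 21.0 and 19.7 CPM in control. With IFN-γ it was 21.1, 29.3 and 28.7 CPM with Remodelin and 17.4, 17.1 and 16.7 CPM without Remodelin. Here Remodelin with IFN-γ 1, the highest library of its group for Ddit3 and Nupr1, was the lowest, at 21.1 CPM beside 21.0 CPM for control 2. The averaged log2 fold change was 0.72 ± 0.12 (SE, edgeR adjusted p = 0.00242).

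Chac1 encodes a γ-glutamylcyclotransferase that breaks down glutathione, and it is among the most specific readouts of ATF4 in mammalian cells. It had 14.2, 9.80 and 10.0 CPM with Remodelin and 5.16, 5.97 and 5.65 CPM in control. With IFN-γ it had 8.99, 11.6 and 11.8 CPM with Remodelin and 5.60, 3.96 and 4.06 CPM without Remodelin. The lowest Remodelin library stood above the highest library without Remodelin, and counts per library ran from 70 to 223 reads. Its averaged log2 fold change of 1.13 ± 0.15 (SE, edgeR adjusted p = 0.000433) was the largest of the 10 genes.

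Ppp1r15a encodes GADD34, the subunit that brings phosphatase 1 to eIF2 and ends the response, and it is itself an ATF4 and CHOP target. Its level was the steadiest of the set, at 42.3, 41.9 and 39.9 CPM with Remodelin and 43.7, 41.9 and 45.1 CPM in control. With IFN-γ it was 36.2, 39.3 and 43.8 CPM with Remodelin and 41.3, 38.6 and 42.6 CPM without Remodelin. The groups overlapped in each pair. The averaged log2 fold change was -0.06 ± 0.10 (SE), and its 95% interval of -0.26 to 0.15 did not reach the fold change of any of the 4 called genes.

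**Figure D2:**
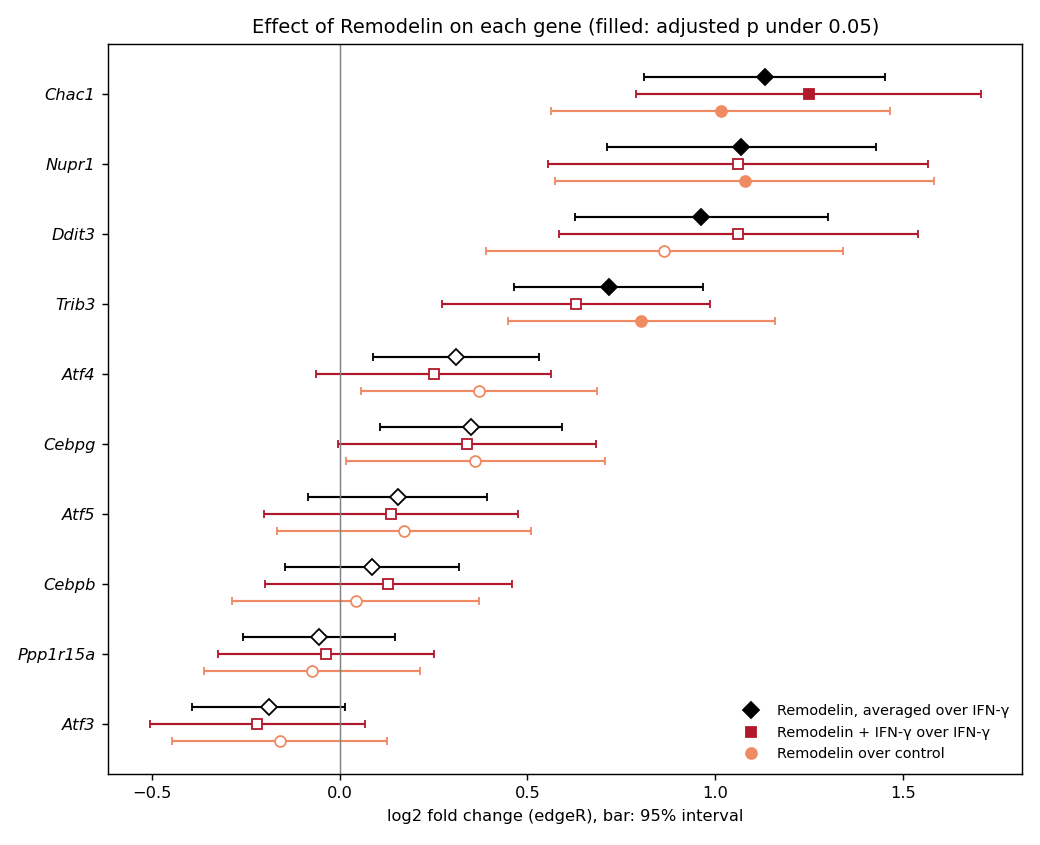
Log2 fold change (horizontal axis, with 95% interval) of each gene for Remodelin over control, Remodelin with IFN-γ over IFN-γ, and the average of these. Filled symbols mark adjusted p under 0.05: the averages of Chac1 (1.13), Nupr1 (1.07), Ddit3 (0.96) and Trib3 (0.72) are filled, and those of the other 6 genes are open.

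Without IFN-γ, Remodelin raised 3 members against control, which were Nupr1 (log2 fold change 1.08 ± 0.24, SE), Chac1 (1.01 ± 0.21) and Trib3 (0.80 ± 0.17). Their edgeR adjusted p-values were 0.0424, 0.0322 and 0.0309. Groups did not overlap upward for 5 members, against 6.09% of all genes. Of all genes 0.193% were called higher in this comparison and 0.846% in either direction. The calls were close to the threshold: 0 members were called without control 1, control 2, IFN-γ 2, IFN-γ 3 or any 1 of the 3 Remodelin libraries, and 1 was called without control 3 or IFN-γ 1. The fold changes of these 3 genes stayed positive in every one of the 22 alternatives, with the lowest at 0.76 for Nupr1, 0.77 for Chac1 and 0.68 for Trib3.

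With IFN-γ in both groups, Remodelin raised 1 member, Chac1, by a log2 fold change of 1.25 ± 0.22 (SE, edgeR adjusted p = 0.0148). Ddit3 (1.06 ± 0.23), Nupr1 (1.06 ± 0.24) and Trib3 (0.63 ± 0.17) had edgeR adjusted p-values of 0.0501, 0.0624 and 0.112. Over all genes, 0.141% were called higher. Groups did not overlap upward for 7 of 10 members, against 12.2% of all genes. Chac1 was no longer called without library 2 or 3 of either group, with adjusted p up to 0.122, and 3 members were called without control 1 or without Remodelin 1.

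The effect of Remodelin with IFN-γ minus that without it was tested directly as an interaction. For no member did it pass the threshold (edgeR, 0 of 10, 0 at unadjusted p under 0.05, 0 by DESeq2). Of all genes 0.00742% passed, and 2.3% were at unadjusted p under 0.05. The difference in log2 fold change was 0.23 for Chac1, with a 95% interval of -0.41 to 0.87, and 0.20 for Ddit3, with an interval of -0.47 to 0.87. For Trib3 it was -0.17, with an interval of -0.68 to 0.33, and for Nupr1 it was -0.02, with an interval of -0.73 to 0.69.

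IFN-γ against control called 0 of the 10 members (edgeR; 0 at unadjusted p under 0.05; 0 by DESeq2), with 0.0148% of all genes called and 5.37% at unadjusted p under 0.05. Cebpb was the one member whose groups did not overlap, at 151, 165 and 166 CPM with IFN-γ and 175, 188 and 233 CPM in control, a downward pattern shown by 8.51% of all genes. Its log2 fold change was -0.31 ± 0.16 (SE, edgeR adjusted p = 0.889). The change of Chac1 was -0.30 ± 0.22 (SE), and that of Cebpg was 0.24 ± 0.16 (SE). In Remodelin-treated cells, Remodelin with IFN-γ against Remodelin alone also called 0 of 10 (edgeR; 0 at unadjusted p under 0.05; 0 by DESeq2), with 0% of all genes called and 7.74% at unadjusted p under 0.05. The member with the smallest unadjusted p there was Trib3, at a log2 fold change of -0.34 ± 0.17 (SE, edgeR adjusted p = 0.654).

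The authors' deposited table lists its own adjusted p-values for these comparisons. In the authors' deposited table, Ddit3, Trib3, Nupr1 and Chac1 were under 0.05 for Remodelin against control (0.0442, 0.00896, 0.00907 and 0.0134), and 0.628% of genes with an adjusted p were. Where both groups had IFN-γ the authors' deposited table had the same 4 genes under 0.05 (0.000109, 0.0222, 0.00101 and 0.00013), against 2.89% of genes. Cebpg was under 0.05 in the authors' deposited table only for Remodelin with IFN-γ against control, at 0.0403. There Ddit3, Nupr1 and Chac1 were also under 0.05 (0.0131, 0.0104 and 0.0107) and Trib3 was not (0.148), against 3.48% of genes. For IFN-γ against control the authors' deposited table had 0 of the 10 members under 0.05, and 122 of 20578 genes (0.593%). Comparisons that share control or IFN-γ libraries are not independent of each other.

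Members differed in how they varied between libraries of 1 group. Remodelin 1 and Remodelin with IFN-γ 1 had the highest Ddit3, Nupr1 and Atf4 of their groups, whereas Remodelin with IFN-γ 1 had the lowest Chac1, Trib3 and Atf5 of its group. The relation of Atf4 mRNA to 4 other members was computed within the 6 Remodelin libraries and within the 6 others, 8 relations in all, since the libraries fall into these 2 clusters. Among the 6 Remodelin libraries, Atf4 and Ddit3 had Pearson's r of 0.932 (exact permutation p = 0.0222, two-sided; Benjamini-Hochberg p = 0.122) and Spearman's rho of 0.886 (exact permutation p = 0.0333; adjusted 0.133). Without the 2 libraries farthest from the median Atf4 level, r was 0.357, so the relation rests on those libraries. Atf4 and Nupr1 had r of 0.862 (exact permutation p = 0.0722; adjusted 0.193) and rho of 0.886 (exact permutation p = 0.0333; adjusted 0.133), with r of 0.738 without the 2 farthest.

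Trib3 and Chac1 stood differently to Atf4 in the same 6 libraries, although the difference between relations was not tested. For Trib3, r was -0.0422 (exact permutation p = 0.736) and rho was -0.257 (exact permutation p = 0.658). For Chac1, r was 0.395 (exact permutation p = 0.475) and rho was 0.143 (exact permutation p = 0.803). In the 6 libraries without Remodelin the largest r was 0.611, for Trib3 (exact permutation p = 0.0306, adjusted 0.122; rho 0.829, exact permutation p = 0.0583, adjusted 0.156; 0.905 without the 2 farthest), and the smallest was -0.388, for Ddit3 (exact permutation p = 0.422; rho -0.0286). No relation passed after adjustment over the 8.

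**Figure D3:**
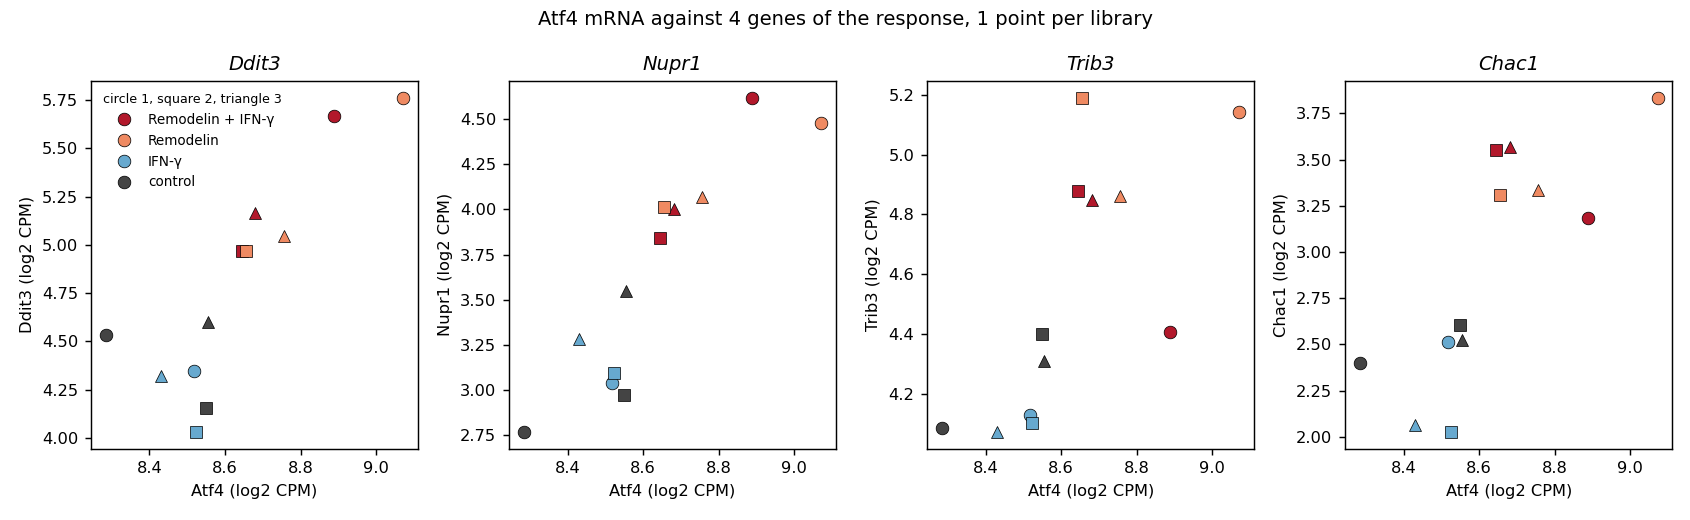
Atf4 level against Ddit3, Nupr1, Trib3 and Chac1 (all in log2 CPM, 1 point per library, coloured by group, with the marker shape giving the library number). Remodelin libraries lie to the upper right of the others in each panel; in the Trib3 panel Remodelin with IFN-γ 1 has a high Atf4 and the lowest Trib3 of the 6 Remodelin libraries.

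Lists of other genes of the pathway were read in the averaged effect, beginning upstream of ATF4. Of 8 kinase and relay genes (the 4 eIF2 kinases Eif2ak1 to Eif2ak4, the GCN2 activator Gcn1 and its inhibitor Impact, and the mitochondrial relay genes Dele1 and Oma1), 0 were called by edgeR, with 2 at unadjusted p under 0.05 and 0 called by DESeq2. These 2 were Eif2ak4, which encodes GCN2 (log2 fold change 0.37), and Impact (0.38). Of 12 genes for eIF2, its exchange factor eIF2B and related factors, 1 was called higher, Eif2s3x (the eIF2 γ subunit), at 0.50 ± 0.14 (SE, edgeR adjusted p = 0.0470). DESeq2 called 2 of the 12 higher, which added Eif2a, and 4 were at unadjusted p under 0.05. The list's median log2 fold change was 0.17, against 0.03 over all genes, and 2.24% of all genes were called higher, 4.8% lower and 26.1% were at unadjusted p under 0.05.

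Amino acid supply genes are the best known ATF4 targets. Of 13 tested enzymes 6 rose and 0 fell, with a median log2 fold change of 0.41. Over all genes 2.24% were called higher and 4.8% lower. Mthfd2, a mitochondrial folate enzyme, had 119, 116 and 110 CPM with Remodelin and 64.0, 62.5 and 69.3 CPM in control, and 125, 106 and 114 CPM with Remodelin and IFN-γ against 56.9, 52.0 and 50.9 CPM with IFN-γ alone. Asns, asparagine synthetase, had 90.6, 76.3 and 80.0 CPM with Remodelin and 39.7, 49.2 and 49.4 CPM in control, and 81.0, 69.5 and 73.0 CPM with Remodelin and IFN-γ against 42.7, 38.2 and 33.8 CPM with IFN-γ alone. For both genes every Remodelin library was above every other library, and the averaged log2 fold changes were 0.96 ± 0.09 and 0.90 ± 0.11 (SE, edgeR adjusted p = 1.66e-05 and 0.000138). Cth, which makes cysteine from cystathionine, and Aldh1l2, another mitochondrial folate enzyme, rose by 1.45 ± 0.22 and 1.46 ± 0.22 (SE, edgeR adjusted p = 0.00113 and 0.00118) from levels of 1.06 to 2.63 CPM without Remodelin. Psat1 (0.58) and Pycr1 (0.80), of serine and proline synthesis, were the other 2.

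Of 10 amino acid transporters 3 rose and 0 fell, against 2.24% of all genes called higher and 4.8% lower. Slc7a11, the cystine importer, had 8.52, 14.5 and 16.8 CPM with Remodelin and 7.04, 6.52 and 4.78 CPM in control, and 12.2, 10.8 and 11.998 CPM with Remodelin and IFN-γ against 6.40, 5.82 and 7.84 CPM with IFN-γ alone. Its averaged log2 fold change was 0.96 ± 0.17 (SE, edgeR adjusted p = 0.00332). Slc7a5, a leucine carrier, rose by 0.62 ± 0.15 (SE, edgeR adjusted p = 0.0251). The third, Slc7a3, an arginine carrier, lay at 0.349 to 0.992 CPM with Remodelin and 0 to 0.253 CPM without, close to the floor of 3 counts (0.152 to 0.192 CPM), and its fold change is uncertain for that reason. Of 20 cytosolic tRNA synthetases, Eprs and Gars rose (0.61 and 0.33) and Farsa fell (-0.45), against 2.24% of all genes higher and 4.8% lower. The median was 0.23, 10 of the 20 were at unadjusted p under 0.05 (26.1% of all genes), and DESeq2 called 6 higher, which added Iars, Lars, Nars and Rars, and 1 lower.

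Among 17 other tested targets of the response 7 rose and 1 fell, against 2.24% of all genes called higher and 4.8% lower. Vegfa, the angiogenic growth factor, had 30.8, 41.5 and 41.0 CPM with Remodelin and 18.9, 18.7 and 17.05 CPM in control, and 31.2, 43.5 and 37.9 CPM with Remodelin and IFN-γ against 18.4, 16.8 and 18.3 CPM with IFN-γ alone. Its averaged log2 fold change of 1.06 ± 0.12 (SE, edgeR adjusted p = 7.65e-05) was close to that of Nupr1. The stress hormone Gdf15 (0.57 ± 0.10), the mTORC1 inhibitor Sesn2 (0.57 ± 0.12) and the cell cycle inhibitor Cdkn1a (0.54 ± 0.10) also rose (SE, edgeR adjusted p = 0.00403, 0.0109 and 0.00384), with Vldlr, Xpot and Niban1. The autophagy gene Map1lc3b fell (-0.34). Of 8 CHOP and cell death genes 2 rose, Car6, a CHOP target in mouse, at 1.76 ± 0.30, and Ero1a, an oxidase of the endoplasmic reticulum, at 0.49 ± 0.12 (SE, edgeR adjusted p = 0.00293 and 0.0215). Car6 was at low levels, 0.380 to 0.861 CPM without Remodelin and 1.04 to 3.18 CPM with it. The other 6 were not called by edgeR, with log2 fold changes of 0.56 for the survival gene Bcl2, 0.46 for Pmaip1, -0.07 for Tnfrsf10b, -0.12 for Bbc3, -0.13 for Bcl2l11 and -0.25 for Dapk3. The median of the 8 was 0.20, 5 were at unadjusted p under 0.05 (26.1% of all genes), and DESeq2 called 3 higher, with Bcl2 as the third.

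**Figure D4:**
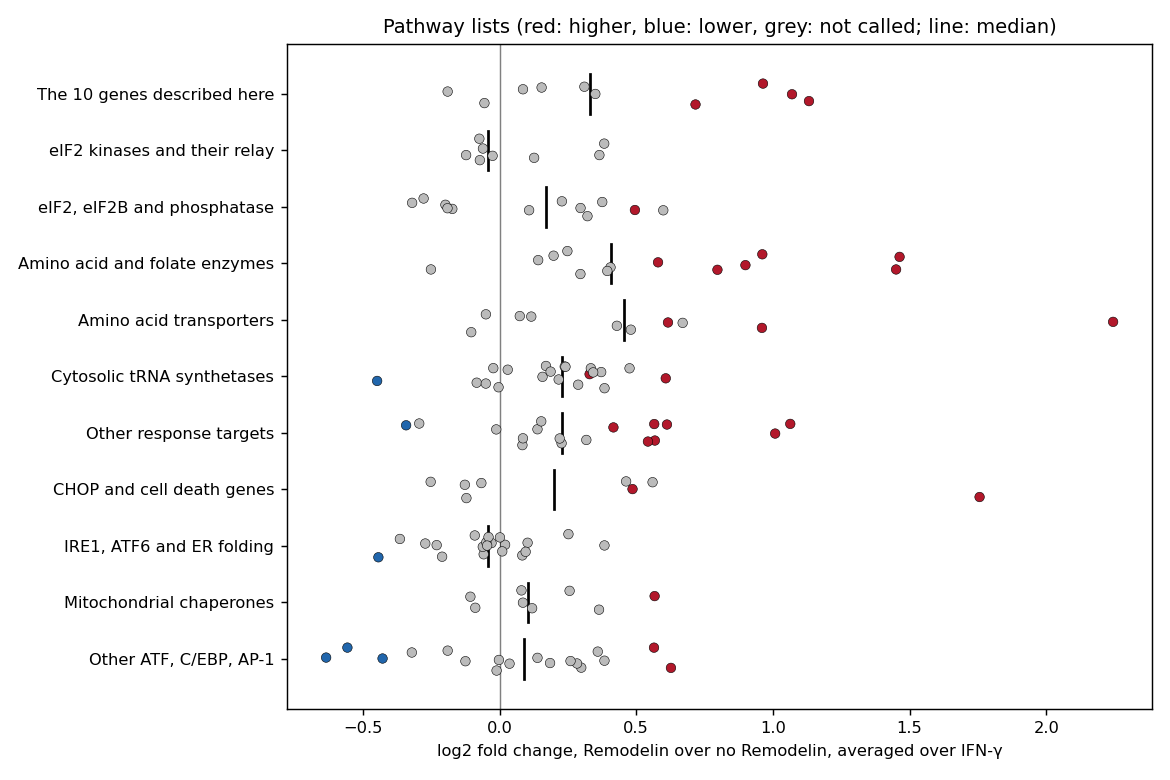
Averaged log2 fold change (horizontal axis, Remodelin over no Remodelin) of each tested gene in 11 lists, 1 point per gene, with red for genes called higher, blue for genes called lower, grey for genes not called and a line at the list's median. Red points number 6 of 13 among amino acid enzymes, 7 of 17 among other targets and 4 among the 10 genes themselves, and there are none among eIF2 kinases and endoplasmic reticulum folding genes. Of all genes 2.24% were called higher.

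The unfolded protein response has other arms, run by IRE1 and ATF6, whose targets are chaperones. Of 20 genes of these arms and of folding in the endoplasmic reticulum, 0 were called higher by edgeR and 1 by DESeq2, 3 were at unadjusted p under 0.05, and 1, the calcium-binding chaperone Calr, fell, at -0.44 ± 0.12 (SE, edgeR adjusted p = 0.0377). The list's median was -0.04. Over all genes 26.1% were at unadjusted p under 0.05, 2.24% were called higher and 4.8% lower. Of 8 mitochondrial chaperones and proteases, Hspa9 (mortalin) rose, at 0.57 ± 0.11 (SE, edgeR adjusted p = 0.00601). Among 18 other ATF, C/EBP and AP-1 genes, Atf1 (0.57) and Fos (0.63) rose and Cebpa (-0.43), Cebpd (-0.56) and Batf (-0.63) fell, against 2.24% of all genes higher and 4.8% lower. The median of the 18 was 0.09, 7 were at unadjusted p under 0.05, and DESeq2 called 3 higher, which added Atf6, and 3 lower. Of 11 tested interferon-γ targets 0 were called higher and 3 lower, against 2.24% and 4.8% of all genes. These 3 were Cxcl10 (-1.47), Ciita (-1.31) and Irf1 (-0.47), with edgeR adjusted p of 0.00297, 0.029 and 0.0326. Cxcl10 and Ciita were at low levels, up to 2.71 and 2.43 CPM. The call of Cxcl10 held in all 20 alternatives with a test, that of Ciita in 13 of 20 and that of Irf1 in 10 of 21.

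The calls in these lists were of unequal firmness. Those of Mthfd2, Asns, Cth, Aldh1l2, Slc7a11, Vegfa, Cdkn1a, Gdf15, Sesn2, Car6, Hspa9, Cebpd and Fos held in every alternative in which the gene was tested. For Car6, a gene of low level, these were 20 alternatives, against 21 for the others. Those of Eif2s3x, Slc7a3, Slc7a5, Farsa, Eprs, Gars, Ero1a, Calr, Cebpa and Atf1 were each lost without control 2, and all of these but Slc7a3 without IFN-γ 2 as well. Of 21 alternatives, Cebpa was called in 8, Eif2s3x in 9, Gars in 10, Eprs in 11 and Calr in 12. Atf1 was called in 13, Ero1a in 14, Slc7a5 in 15 and Farsa in 17 of 21, and Slc7a3 in 18 of 20. With the GC trend removed, the calls of Eif2s3x, Eprs, Ero1a and Cebpa were lost. When each library was left out in turn, the count of calls ran from 5 to 7 for the enzymes, 1 to 5 for the transporters, 0 to 7 for the synthetases, 4 to 9 for the other targets and 0 to 3 for endoplasmic reticulum folding.

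By a fixed rule, the genes outside the set most like it were those whose log2 CPM correlated best with the mean standardised level of the 10 members over the 12 libraries. Of 9149 candidates with a mean of at least 5 CPM, these were H1f2, a linker histone (r = 0.983), Pdlim4, an actin-associated protein (0.948), Psat1, the serine synthesis enzyme (0.948), Eef2, the elongation factor (0.938), and Dusp1, a MAP kinase phosphatase (0.937). These correlations are descriptions over 12 libraries that share the split by Remodelin, and they carry no test.

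Some markers of other peritoneal cells moved with Remodelin as well. The summed level of 7 mesothelial markers was 45.7 to 57.7 CPM with Remodelin and 88.2 to 109 CPM in control, and 44.6 to 62.3 CPM with Remodelin and IFN-γ against 81.5 to 92.0 CPM with IFN-γ alone. The 7 did not move one way, and 0 were at 0 reads. Upk3b, at a mean of 11.4 CPM with Remodelin and 46.5 CPM in control, fell (log2 fold change -1.80) and Krt19 fell (-0.71, edgeR adjusted p = 0.0483). The call of Upk3b held in all 21 alternatives, and that of Krt19 in 7 of 21. Wt1 (-0.24), Lrrn4 (-0.39), Msln (0.64), Krt18 (0.61) and Krt8 (0.43) were not called by edgeR, and DESeq2 called Krt18 higher. The summed level of 7 neutrophil markers was 55.9 to 57.3 CPM with Remodelin and 69.3 to 83.4 CPM in control, and 53.3 to 55.4 CPM with Remodelin and IFN-γ against 70.5 to 75.3 CPM with IFN-γ alone, with 0 at 0 reads. Mmp9, at a mean of 9.62 CPM with Remodelin and 21.97 CPM in control, and Mmp8, at 3.20 and 8.48 CPM in the same groups, were called lower. These were 2 of the 5 tested neutrophil markers, against 4.8% of all genes called lower in the averaged effect. S100a8 (-0.21), Csf3r (-0.04) and Cxcr2 (0.30) were not called, and S100a9 and Retnlg had too few reads to be tested. The 5 fibroblast markers summed to 266 to 468 CPM in Remodelin libraries and 381 to 618 CPM in control libraries, and to 316 to 431 CPM with Remodelin and IFN-γ against 324 to 395 CPM with IFN-γ alone. In the averaged effect Col3a1 fell (log2 fold change -0.93) and the other 4 were not called. Of the B cell, T and NK cell, dendritic cell and mast cell markers 0 were called by edgeR (1 B cell and 1 mast cell marker at unadjusted p under 0.05) or DESeq2, with a summed level of at most 7.04 CPM for each list. In bulk libraries fewer cells of a type and less RNA per cell cannot be told apart. The part of these cells in the changes of the ISR genes was not tested.

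Genes that overlap members on the opposite strand could share reads, since the labels name no strand setting for the counting. Ddit3, on chromosome 10, overlaps Mars1, a tRNA synthetase, whose averaged log2 fold change was 0.17 ± 0.10 (SE), against 0.96 for Ddit3. Atf5, on chromosome 7, overlaps Nup62 (-0.13 ± 0.13), and Cebpb, on chromosome 2, overlaps Peds1, which fell by 0.38 on the log2 scale. Chac1, Trib3, Nupr1 and Atf4 overlap no other gene in the table.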

How the data were processed

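Total RNA of 12 libraries in 4 groups of 3 was sequenced, with groups taken from titles. Raw read counts and, beside them, the authors' FPKM values were deposited as 1 table, per the file headers; FPKM served to compare levels between genes. The submitters' processing notes name CASAVA 1.8, HISAT2 2.0.5 and featureCounts 1.5.0-p3 with no role. The sources used here name no genome build, so no coordinates of the table are printed. The p-values and log2 fold changes that the authors deposited for their comparisons were read for side-by-side values, and their group means were not used here.

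Counts were tested with edgeR 4.0.16 in R 4.3.3 (quasi-likelihood, TMM, default count filter, all 12 libraries in 1 fit, Benjamini-Hochberg over 13474 genes, threshold 0.05). The common biological coefficient of variation was 18.6%, log2 CPM used a prior count of 2, and depth was 15917454 to 19418665 counts. On simulated counts of 13283 genes, 2-fold changes were recovered for 61.7% (Remodelin against control), 53.2% (the same with IFN-γ) and 89.4% (average), with 12 of 155, 5 of 137 and 13 of 194 calls false. Those counts were drawn independently for each gene and library, with 200 changed genes and no GC trend. The real libraries have GC trends, so these rates need not hold for them. The floor of 3 counts covers counting error only. Alternatives were DESeq2 1.42.0, limma-voom (limma 3.58.1), DESeq2 size factors, 2 other filters, a replicate block, GC correction, both of these together, the compared groups alone, leaving out each library, and leaving out control 1 with Remodelin 1. Replicate numbers were not taken to pair libraries. Relations used exact permutation in scipy.

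The members, gene lists and tests were chosen with earlier results of these data known. All 10 members are named; from each other list up to 4 genes called in the averaged effect with the smallest p are given values, with every called kinase, eIF2B, ATF or C/EBP gene, and 5 genes by pattern. Genes that DESeq2 added, and the remaining cell death, mesothelial, neutrophil and large peritoneal macrophage genes, were named after their values were seen. Psat1, Pycr1, Vldlr, Xpot, Niban1, Map1lc3b and death genes with no call were named after their values were seen. Promoter windows came from RefSeq on GRCm38.p6.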

Additional observations from a re-analysis of the deposited data

How the results depend on the processing

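In the averaged effect the 4 called members kept their call in all 21 alternatives, with leave-one-out adjusted p up to 0.0118 for Ddit3, 0.0111 for Trib3, 0.00965 for Nupr1 and 0.00264 for Chac1 (edgeR). With the trend with GC content removed, 7 members were called, which added Atf4, Atf5 and Cebpb, and with DESeq2 6 were called, which added Atf4 and Cebpg; leaving out each library gave 4 to 5. Without IFN-γ, 3 members were called against 0 with the compared groups alone, and leaving out each library gave 0 to 4. With IFN-γ, 1 member was called against 3 without a count filter, 4 with DESeq2, 2 with the GC trend removed and 2 with the compared groups alone, and leaving out each library gave 0 to 3. The cause of these differences was not tested. IFN-γ against control, Remodelin with IFN-γ against Remodelin and the interaction called 0 members under every alternative run. For Remodelin against control over all genes, 114 calls became 283 with no filter, 267 with DESeq2, 190 with the GC trend removed, 22 with the compared groups alone and 20 (without control 2) to 216 (without Remodelin with IFN-γ 1) over left-out libraries, and 1853 without control 1 and Remodelin 1 together. With IFN-γ, 49 calls over all genes became 271 with no filter, 261 with DESeq2, 83 with the compared groups alone and 10 (without IFN-γ 2) to 144 (without Remodelin 1) over left-out libraries. IFN-γ against control had 2, which became 52 with no filter, 19 with the compared groups alone and 4 with DESeq2; the interaction had 1 and 19 with no filter, and Remodelin with IFN-γ against Remodelin had 0, 6 with no filter and 1 with DESeq2. For the average, 949 became 298 (without control 2) to 1960 (without Remodelin 1), and 3668 without control 1 and Remodelin 1, where Atf3 was also called lower. With the GC trend removed, 33.2% of the calls without IFN-γ were higher, against 22.8% in the main analysis.

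Same-numbered libraries did not deviate together: over 18 pairs r ran from -0.547 to 0.261, 5 of them over 0.1, and 2 of 12 libraries correlated best with their own number. With the replicate block, calls of the average over all genes fell to 578 (491 with the GC trend also removed), to 58 without IFN-γ and to 24 with IFN-γ; 0 members were called without IFN-γ and 2 with IFN-γ, and 2 were called with IFN-γ under the block with the GC trend removed. The call of Batf was lost only with both together (edgeR adjusted p = 0.058). Over the alternatives the averaged log2 fold change of Ppp1r15a ran from -0.09 to 0.11 and that of Cebpb from -0.03 to 0.36.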
